A study of Salmo salar with 30 samples.

Results

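In the distal intestine of Atlantic salmon, 15 microarray probes were higher in fish fed soybean meal than in fish fed a fish meal control feed, stayed high when an additive mix called package 1 (P1) was added to the soybean meal, and stood closer to control when package 2 (P2) was added. They are 15 of the 14841 non-control probes on the array and 15 of the 207 probes that soybean meal raised under the same rule. The level of a probe is given throughout as the log2 of its processed signal minus the 75th percentile of that array, so that 0 is the 75th percentile and a difference of 1 is a doubling. A probe was taken if it was well above background on all 30 arrays, if its mean level was more than 1 higher in soybean meal fish than in control fish, and if every soybean meal fish lay above every control fish. In addition, its difference from control with P2 had to be at most 60% of the soybean meal difference, and its difference from control with P1 at least 75% of it. The probes were thus selected on the levels of the soybean meal + P2, soybean meal + P1, soybean meal and control fish, and comparisons among these 4 diets are a description. The limma counts, standard errors and p-values given among them are values the choice shaped and support nothing. The corn gluten diets entered the choice only through the requirement that the probes be detected on their arrays.

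Each diet was represented by 5 fish, with 1 array per fish. The diets were soybean meal + P2, with 0.05% nucleotides, 0.01% butyrate and 0.1% β-glucan added; soybean meal + P1, with 1.5% arginine and 0.01% butyrate added; soybean meal alone; corn gluten + P2, with the same P2 additives; corn gluten alone; and a control feed high in fish meal. All fish came from 1 trial of 18 tanks, started at 177 g and ate the diets for 67 days at 11.2 °C. The labels do not say which tank a fish came from. The p-values measure the spread between fish, and tank mates that resemble each other would make them too small. For the corn gluten fish, the names of the deposited files mention pea, while the labels say corn gluten.

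Soybean meal is known to cause an enteritis of the distal intestine in salmonids, in which the mucosal folds shorten, the enterocytes lose their vacuoles and inflammatory cells enter the lamina propria. Butyrate is a short-chain fatty acid that gut epithelium uses as fuel, and arginine is a precursor of nitric oxide and polyamines. β-glucans are cell wall polysaccharides of yeast and other microbes that leukocytes recognise, and dietary nucleotides supply building blocks to dividing cells. Butyrate was in both packages, arginine in P1 alone, and β-glucan and nucleotides in P2 alone.

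The files do not pair probes with genes, and 0 of the 14841 identifiers matched the gene table of the species. The probes are therefore described by identifier, with no gene name, function or sequence, and markers of the tissue or of single cell types could not be looked up. In whole tissue, fewer cells of a type and less RNA per cell cannot be told apart. Between 12491 and 13376 probes were well above background on an array. The model was fitted to 13577 probes.

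Averaged over the 15 probes, the soybean meal + P2 fish had levels of −1.94, −1.37, −1.87, −2.05 and −1.73 for fish 1 to 5. The soybean meal + P1 fish had −0.81, −0.86, −1.02, −1.94 and −0.85, and the soybean meal fish −0.69, −1.33, −0.89, −1.30 and −1.16. The P2 fish thus lay below the soybean meal fish in all 5 cases, by a narrow margin for P2 fish 2, while 4 of the 5 P1 fish lay within the soybean meal range and P1 fish 4 lay among the P2 fish. The control fish had −2.16, −2.12, −2.74, −2.77 and −2.44, below every soybean meal, P1 and P2 fish. The means were −1.79 ± 0.26 with P2, −1.10 ± 0.48 with P1, −1.07 ± 0.28 with soybean meal alone and −2.45 ± 0.31 in control (SD, n = 5 each). As a share of the soybean meal rise over control, P2 fish kept 47.7% on average and 29.0% to 78.6% as single fish. P1 fish kept 98.2% on average and 36.6% to 119% as single fish. Without P1 fish 4 the P1 mean was −0.88 ± 0.09 (n = 4).

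Ssa#CX356212 was the most raised of the 15. It was dim in control fish, with a median of 18.7 processed units, and its lowest spot was 1.81 times the local background. In soybean meal + P2 fish its level was −3.97, −2.06, −3.61, −4.25 and −2.93, against 0.32, −0.35, −0.89, −3.85 and −0.95 in P1 fish and −0.97, −2.45, −1.36, −1.27 and −1.59 in soybean meal fish. P2 fish 2 lay inside the soybean meal range and the other 4 below it, and 4 of 5 P1 fish lay above every soybean meal fish, while P1 fish 4 was down among the P2 fish. Control fish had −3.73, −2.62, −5.68, −4.90 and −4.99. Control fish 1 and 2 lay within the P2 range, so P2 and control fish overlapped, whereas soybean meal and control fish did not. The difference from control was 1.02 with P2, 3.24 with P1 and 2.86 with soybean meal alone (SE 0.61 each). These are 2.03-fold, 9.44-fold and 7.24-fold, and P2 fish stood 3.57-fold below soybean meal fish.

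Ssa#CL47Contig1 was by far the brightest of the 4 most raised probes, with processed signals of 1066 to 23449 units. Its level was 2.86, 3.45, 2.60, 2.17 and 3.41 in P2 fish, against 5.25, 4.63, 4.59, 2.36 and 4.21 in P1 fish and 4.38, 3.89, 4.16, 4.13 and 4.16 in soybean meal fish. The soybean meal fish were closely grouped (SD 0.17), and every P2 fish lay below all of them, as did P1 fish 4 alone among the P1 fish. Control fish had 1.91, 3.74, 1.33, 2.08 and 1.77, and control fish 2 was higher than every P2 fish. P2 kept 37.0% of the soybean meal difference of 1.98, and P1 kept 103% (SE of each difference 0.44).

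Ssa#S31977617 had levels of −4.23, −3.98, −4.45, −5.04 and −4.29 in P2 fish, against −3.05, −2.81, −2.82, −4.72 and −3.79 in P1 fish and −2.32, −3.28, −3.10, −3.87 and −3.39 in soybean meal fish. The P2 fish lay wholly below the soybean meal fish, and P1 fish 4 was again the one P1 fish within the P2 range. Control fish had −5.01, −5.59, −5.36, −6.08 and −5.64, with only P2 fish 4 reaching down into their range. The difference from control was 1.14 with P2, 2.10 with P1 and 2.34 with soybean meal alone (SE 0.37 each). This probe too was dim in control fish, with a median of 14.3 processed units, and its lowest spot was 1.56 times the local background.

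Ssa#GRASP209155917 varied least between fish among the 4 most raised probes. It had −3.86, −3.02, −3.81, −3.59 and −3.31 in P2 fish, against −2.88, −2.95, −2.83, −3.85 and −2.79 in P1 fish and −2.82, −3.00, −2.69, −2.96 and −2.71 in soybean meal fish. The P2 fish lay below the soybean meal fish without overlap, P2 fish 2 by a small margin, and 4 of 5 P1 fish lay within the soybean meal range. In control fish it had −4.17, −4.19, −4.60, −4.56 and −4.09, all below the P2 fish. P2 kept 54.0% of the soybean meal difference of 1.49 and P1 kept 84.8% (SE of each difference 0.18).

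Ssa#TC71868 and Omy#CA368682 completed the 4 probes with the lowest share kept with P2, beside Ssa#CX356212 at 35.7% and Ssa#CL47Contig1 at 37.0%. Omy#CA368682 kept the least, 28.4% with P2 against 84.2% with P1. It was a dim probe, at 6.60 to 94.8 processed units, and its lowest spot was 1.53 times the local background. Its level was −5.44, −5.12, −5.79, −5.76 and −5.47 in P2 fish, −5.38, −5.05, −5.52, −4.88 and −3.56 in P1 fish and −4.89, −5.28, −3.18, −5.00 and −5.14 in soybean meal fish, against −5.81, −5.84, −5.75, −6.38 and −5.44 in control fish. Soybean meal fish 3 and P1 fish 5 stood well above the rest of their diets, and P2 and control fish overlapped. Its soybean meal difference of 1.15 rested in part on soybean meal fish 3, at −3.18 against −5.28 to −4.89 in the others. With normexp background correction its differences from control turned negative with both packages, so its share kept was not stable across settings.

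Ssa#TC71868 had −3.07, −2.54, −3.08, −3.37 and −4.34 in P2 fish, −1.46, −1.88, −2.10, −4.29 and −2.31 in P1 fish and −1.48, −2.85, −3.05, −2.63 and −2.79 in soybean meal fish, against −3.85, −3.49, −4.32, −3.85 and −3.45 in control fish. P2 fish 2 lay inside the soybean meal range and P2 fish 5 just below the control range, so this probe separated the diets less cleanly than the 4 most raised ones. It kept 41.4% of its soybean meal difference of 1.23 with P2 and 112% with P1.

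The other 9 probes had soybean meal differences of 1.01 to 1.21. Over all 15, the median difference from control was 0.60 with P2, 1.18 with P1 and 1.08 with soybean meal alone. The share kept ran from 28.4% to 58.7% with P2 (median 53.8%) and from 75.8% to 130% with P1 (median 89.6%). With P2, 9 of the 15 lay between 52.8% and 58.7%, close under the limit. With P1, 7 kept more than the whole soybean meal difference, from 103% upwards, and 8 kept 89.6% or less. Ssa#S31968776 kept 49.1% with P2 and 84.3% with P1. Ssa#S35549220 kept 53.8% with P2 and 113% with P1, and Ssa#GRASP209738053 kept 58.5% with P2 and 107% with P1. The 3 remaining Ssa#GRASP probes lay close together, at 54.5% to 58.3% with P2 and 81.2% to 86.0% with P1. With slide as a block, 1 of these, Ssa#GRASP223648021, kept 96.3% with P2, the highest share of the 15 in that fit. Omy#CA368682 then kept 51.0% with P2, and 14 of the 15 kept less with P2 than with P1. With normexp background correction the median difference from control over the 15 probes was 0.19 with P2, 0.68 with P1 and 0.69 with soybean meal alone. That setting also added an offset of 50 units to every spot. The largest share with P1, 130%, belonged to Ssa#S47727792. Its level was −1.77, −1.41, −1.49, −1.50 and −1.89 in P2 fish, −0.74, −0.82, −1.03, −1.05 and −0.74 in P1 fish and −0.73, −1.47, −0.75, −1.58 and −1.35 in soybean meal fish, against −1.65, −1.95, −2.10, −2.88 and −2.37 in control fish. Its 5 P1 fish were tightly grouped above all P2 fish, and the soybean meal fish reached into both ranges.

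The limits of the rule cut through a continuous spread of probes. On the P2 side, Ssa#S35702585 was just inside with 58.7% kept, and Ssa#S32011879 just outside with 60.4% (soybean meal difference 1.27, P1 117%). On the P1 side, Ssa#S35582199 was just inside with 75.8% kept, and Ssa#GRASP209150355 just outside with 74.3% (soybean meal difference 1.19, P2 53.7%). For the soybean meal difference, Ssa#S47727792 was just inside at 1.01, and Ssa#S47727650 just outside at 0.95 (P2 51.2%, P1 78.4%).

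The word reduced describes means and rests on no test, and the counts for the comparisons among the soybean meal diets follow in part from the limits of the rule. For soybean meal + P2 minus soybean meal, 0 of the 15 probes were called lower by limma at an adjusted p below 0.05, where 0.169% of all tested probes were called lower, and 12 of the 15 had an unadjusted p below 0.05 (22% of all tested probes, in either direction). The median difference was −0.55 (−1.84 to −0.43). Over all 207 probes raised by soybean meal it was −0.34, with 171 lower. For soybean meal + P1 minus soybean meal, the median over the 207 was −0.24, with 153 lower. All 207 were chosen as high in the same soybean meal fish. The P2 and soybean meal fish did not overlap for 3 probes, Ssa#S31977617, Ssa#CL47Contig1 and Ssa#GRASP209155917, where 1.32% of all tested probes had the P2 fish lower without overlap. Without P1 fish 4, which enters the fit through the shared estimate of spread, 4 probes were called lower with P2: Ssa#CX356212, Ssa#S31977617, Ssa#GRASP209155917 and Ssa#S31968776 (0.493% of all tested probes in that fit).

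Between the packages, soybean meal + P2 minus soybean meal + P1 had a median over the 15 probes of −0.60 (−2.22 to −0.26), with 0 called by limma against 0.0663% of all tested probes called lower, and 9 at an unadjusted p below 0.05 (17.6% of all tested probes). With the fish number as a block, 0 of the 15 were called, and 15 of all tested probes were called lower in place of 9. Without P1 fish 4, 4 of the 15 were called lower, Ssa#CX356212, Ssa#CL47Contig1, Ssa#GRASP209155917 and Ssa#S31968776 (0.84% of all tested probes in that fit). The P2 and P1 fish did not overlap for 1 probe, Ssa#S47727792, where 2.41% of all tested probes had every P2 fish below every P1 fish. Soybean meal + P1 minus soybean meal had a median of −0.15 (−0.29 to 0.38) with 0 called by limma and 0 at an unadjusted p below 0.05 (10.6% of all tested probes), against 0.00737% called lower over all tested probes. For 0 of the 15 were the P1 and soybean meal fish free of overlap, where 0.744% of all tested probes were lower with P1 and 0.692% higher without overlap.

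Against control, all 15 probes were called higher by limma with soybean meal alone (12.9% of all tested probes; no overlap between fish, which the rule required, in 6.47%) and with P1 (14.8%), and 7 of 15 with P2 (9%). Every P2 fish lay above every control fish for 4 probes, Ssa#GRASP209155917, Ssa#S31968776, Ssa#GRASP223649345 and Ssa#GRASP223649271, where 5.35% of all tested probes did so. With P1 this held for 10 probes, against 9.56% of all tested probes. These counts follow from the choice of probes and from the control fish that all 3 comparisons share. Ssa#S31968776 is described here after its values were seen, as are the probes singled out by overlap. Its spread was small in control fish (SD 0.09) and largest in P1 fish (SD 0.46). Its level was 1.73, 1.33, 1.04, 1.28 and 1.34 in P2 fish, 1.95, 1.78, 1.68, 1.00 and 2.23 in P1 fish and 1.98, 1.65, 2.09, 1.60 and 2.15 in soybean meal fish, against 0.76, 0.86, 0.93, 0.70 and 0.82 in control fish. One P2 fish, fish 1, lay within its soybean meal range, and P1 fish 4 lay just below the lowest P2 fish.

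Outside the choice, P2 could be compared only without soybean meal, as corn gluten + P2 against corn gluten. Corn gluten fish lay on average 0.0093 above control over the 15 probes, so they held almost no rise for P2 to lower. The comparison therefore cannot show whether P2 lowers a soybean meal rise. Averaged over the 15 probes, corn gluten + P2 fish had −2.65, −2.13, −2.43, −2.37 and −2.36, against −2.71, −2.29, −2.23, −2.40 and −2.57 in corn gluten fish. The ranges overlapped almost fully, with means of −2.39 ± 0.19 and −2.44 ± 0.20 (SD, n = 5 each). By limma, 0 of the 15 probes were called, as were 0% of all tested probes, and 0 of the 15 had an unadjusted p below 0.05, a level that 1028 of all 13577 probes (7.57%) reached. The median difference was −0.00 (−0.32 to 0.53), with 7 probes higher and 8 lower, beside a median of 0.02 over all tested probes. No probe of the 15 had groups without overlap in either direction, where 0.552% of all tested probes were lower and 0.773% higher without overlap.

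The smallest unadjusted p of the 15 in this comparison belonged to Ssa#S47727792. It had −2.37, −1.80, −2.50, −2.45 and −2.50 in corn gluten + P2 fish, against −2.07, −2.09, −1.85, −1.47 and −2.52 in corn gluten fish. Of the 5 corn gluten + P2 fish, 4 lay near the lowest corn gluten fish, and fish 2 lay above 4 of the 5 corn gluten fish. The difference was −0.32 ± 0.21 (SE; adjusted p = 0.754 by limma). Next came Ssa#S31977617, in the opposite direction. It had −6.29, −4.79, −5.72, −4.03 and −5.03 with P2 and −6.17, −5.15, −5.53, −5.59 and −6.03 with corn gluten alone. The values overlapped over most of their range, with P2 fish 4 the highest of the 10. The difference was 0.52 ± 0.37 (SE; adjusted p = 0.781 by limma).

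Without soybean meal, the 15 probes stood near their control level. Corn gluten minus control had a median of 0.06 over the 15 probes (−0.70 to 0.40), with 11 higher, and corn gluten + P2 minus control a median of −0.00 (−0.17 to 0.38), with 7 higher. By limma 0 of the 15 were called in either comparison, and 0 had an unadjusted p below 0.05, where 0.0663% of all tested probes were called for corn gluten and 0.103% for corn gluten + P2. An unadjusted p below 0.05 was reached by 6.05% of all tested probes for corn gluten and by 11.4% for corn gluten + P2. For 0 of the 15 did the fish separate without overlap, where 0.442% of all tested probes were lower and 0.398% higher with corn gluten, and 0.95% lower and 0.958% higher with corn gluten + P2. Both comparisons share the control fish on which the probes were chosen, so the values are a description. The lowest corn gluten difference was that of Ssa#CX356212, at −0.70 ± 0.61 (SE). Its level was −5.49, −3.81, −4.71, −4.84 and −3.90 in corn gluten + P2 fish and −6.20, −4.70, −4.76, −4.74 and −5.01 in corn gluten fish, which overlapped the control fish given above.

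The highest corn gluten difference was that of Ssa#S35582199, at 0.40. It had −2.19, −1.84, −2.23, −2.46 and −2.08 in corn gluten + P2 fish and −1.98, −1.75, −1.77, −2.01 and −2.10 in corn gluten fish, against −1.69, −2.45, −2.38, −2.93 and −2.15 in control fish. Control fish 1 was higher than every corn gluten fish and the other control fish lower, so the diets overlapped. In the soybean meal diets this probe had −1.49, −1.23, −2.20, −2.32 and −1.18 with P2, −1.12, −1.24, −1.68, −2.10 and −0.88 with P1 and −0.29, −1.61, −1.18, −1.33 and −1.14 with soybean meal alone. The ranges of these 3 diets overlapped one another.

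Set against the corn gluten fish in place of control fish, soybean meal alone was higher for all 15 probes, by a median of 1.02 (0.69 to 3.55), and without overlap for 12 of them (6.24% of all tested probes). Soybean meal + P2 fish lay above all corn gluten fish without overlap for 5 probes (5.13% of all tested probes). Soybean meal + P2 minus corn gluten + P2 had a median of 0.65 (0.06 to 1.19), without overlap for 4 probes (6.28% of all tested probes). The soybean meal and P2 fish in these values are those the rule used.

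The other probes raised by soybean meal were 44 that met the limit of 60% with both packages, 81 that kept at least 75% with both, 8 that met the opposite pattern (60% or less with P1 and at least 75% with P2) and 59 with other shares. Outside the choice, corn gluten + P2 minus corn gluten had a median of −0.00 for the 15 probes. It was −0.11 for the 44 reduced with both packages, 0.13 for the 81 reduced with neither and 0.40 for the 8 reduced with P1 only. Corn gluten + P2 and corn gluten fish shared no slide, so these differences also lie between slides. Corn gluten minus control had a median of 0.06 for the 15, against 0.40 for the 44 and 0.14 for the 81. The spread between fish of a corn gluten diet, as the median SD over probes, was 0.34 for the 15, 0.54 for the 44 and 0.36 for the 81. These medians describe chosen lists, and their differences were not tested.

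Within diets the 15 probes tended to move together from fish to fish. After the diet means were removed, the median Pearson r over the 105 pairs was 0.395 across 30 fish, with 99 pairs positive, against 0.231 over all raised probes and 0.0071 over all detected probes. In the 10 corn gluten fish the median was 0.253, with 74 of 105 pairs positive, against 0.190 over all raised probes and 0.0162 over all detected probes. It was highest in the P1 fish, at 0.703 against 0.649 over all raised probes. P1 fish 4 was lowest of that diet for 14 of the 15 probes. The median was 0.462 in soybean meal, 0.430 in control and 0.406 in P2 fish. Over all raised probes these diets had 0.0955, 0.0678 and 0.308. In each fish both probes of a pair were read on the same array and share its scaling. The soybean meal, P1, P2 and control fish also served in the choice, so these values are a description.

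The closest pair was Ssa#CX356212 and Ssa#CL47Contig1, with r = 0.916 across the 30 fish and 0.888 across the 10 corn gluten fish. Their spots lay apart on the array, and none of the 15 spots was closer to another than 3 rows or columns. The least alike were Ssa#TC71868 and Omy#CA368682, with r = −0.178.

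Some fish stood apart from their diets over many of the probes. P1 fish 4 was the lowest of its diet for 14 of the 15 probes, P2 fish 2 the highest of its diet for 11, and soybean meal fish 1 the highest of its diet for 9. Without P1 fish 4 the median share kept with P1 was 103%, and without P2 fish 2 the median share kept with P2 was 45.7%. P1 fish 4 was low also over the 81 probes reduced with neither package, where it kept 55.0% of the soybean meal rise. In corn gluten fish the levels of the 15 probes ran from the 2.36 to the 85.2 percentile of the detected probes, with a median of 36.4. Of the 450 spots behind these values, 0 were outliers or saturated. By identifier, 6 of the 15 (40.0%) began with Ssa#S and 5 (33.3%) with Ssa#GRASP, against 37.4% and 21.3% of all probes. Among the probes detected on all arrays these shares were 37.3% and 26.1%.

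The arrays lay on 6 slides, each read in 1 scan, and each slide held more than 1 diet. On slide 4 (2 P2 fish and 1 soybean meal fish) P2 was lower for 14 of the 15 probes, by a median of −0.64. On slide 6 (1 P2 and 2 P1 fish) P2 was lower than P1 for 14 probes, by a median of −0.49. The rule used these same fish, so both counts follow in part from the choice of probes. The counts within slides were made over the 15 probes only, with no share over all tested probes beside them. P1 set against soybean meal alone gave opposite directions on the slides that held both: on slide 3 (2 fish each), which held P1 fish 4, 14 probes were lower by a median of −0.48, and on slide 5 (1 P1 and 2 soybean meal fish) 13 were higher by a median of 0.35. Against control, P2 was higher for 15 probes on slide 2 (median 0.99) and for 13 on slide 6 (median 0.68), and P1 for 15 on slide 6 (median 1.18). Corn gluten was higher than control for 11 probes on slide 6 (median 0.17), and corn gluten + P2 lower than control for 10 on slide 1 (median −0.26). Soybean meal and control fish shared no slide, nor did corn gluten + P2 and corn gluten fish. With slide as a block in the limma fit, 0 of the 15 were called for P2 or P1 set against soybean meal alone, for P2 set against P1, or for any corn gluten comparison, where at most 4 of all tested probes were called. Higher than control were 13 of the 15 with soybean meal alone (7.79% of all tested probes), 12 with P1 (10%) and 9 with P2 (8.52%). The median of corn gluten + P2 minus corn gluten was then −0.15.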

How the data were processed

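Each Cy3-labelled array was read by Feature Extraction 12.0.1.1, per the file headers. The processed signal that the authors deposited is a linear intensity, with background removed but no scaling from array to array. Levels are its log2 minus the array's own 75th percentile, taken over 14841 non-control probes. The authors' deposited value table, also intensity values, served as an alternative.

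The fit used the 13577 probes that were detected above background on 5 or more of 30 arrays, leaving out 1264. All diets entered 1 limma 3.58.1 model in R 4.3.3, with 1 coefficient per diet, spots marked as outliers missing, and Benjamini-Hochberg adjustment over all tested probes within each comparison. A probe was called at an adjusted p below 0.05.

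The 15 probes and all lists were chosen with earlier results of these data known. Probes named were the 4 most raised by soybean meal, the 4 with the lowest share kept with P2, the nearest inside and outside each limit, the 2 with the smallest p for corn gluten + P2 minus corn gluten, and the extremes of corn gluten minus control. Ssa#S31968776, Ssa#S35549220, Ssa#GRASP209738053, Ssa#GRASP223648021, Ssa#GRASP223649345 and Ssa#GRASP223649271 were named after their values were seen. The planned gene and marker lists could not be applied, since no probe was paired with a gene. Fish numbers were checked as pairs: deviations of same-numbered fish correlated at 0.126 to 0.366 in all 5 pairs of P2 with P1 fish. For P2 fish 1, at 0.126, another P1 fish correlated more than the same-numbered one. The labels state no pairing, and whether these fish were paired was not tested. In other comparisons the lowest pair was below 0. The alternatives covered background correction, scaling, the authors' table, probe filters, slide or fish number as a block, the diets in the fit, the limits of the rule and each fish left out. The number of fish limits the precision.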

Additional observations from a re-analysis of the deposited data

Results flagged for a closer look

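In 7 of 96 groups of 5 fish examined, 1 fish stood apart from the other 4 by Dixon's criterion, which chance meets in about 1 of 20 groups. Averaged over the 15 probes, soybean meal + P1 fish 4 was lowest at −1.94, against −1.02 to −0.81 in the other P1 fish. The same fish was lowest for Ssa#GRASP209155917 at −3.85, against −2.95 to −2.79. Corn gluten fish 1 was lowest for Ssa#CX356212 at −6.20, against −5.01 to −4.70, and for Ssa#CL47Contig1 at 0.60, against 1.66 to 2.07. Soybean meal fish 1 was highest for Ssa#TC71868 at −1.48, against −3.05 to −2.63. Soybean meal fish 3 was highest for Omy#CA368682 at −3.18, against −5.28 to −4.89. Corn gluten + P2 fish 2 was highest for Ssa#S47727792 at −1.80, against −2.50 to −2.37.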

How the results depend on the processing

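The number of probes that met the rule was 5 with normexp background correction, 6 with a P2 limit of 50% and 7 with a P1 limit of 90%, in place of 15. With normexp 2 of the 15 themselves met it, and 4 kept a soybean meal difference above 1. With slide as a block 22 probes met it, 9 of the 15 among them, and with median scaling 16, 10 of the 15 among them. It ran from 10 to 31 with 1 fish left out in turn, the highest without control fish 1 (11 of the 15 among them). Of the 15, 4 (Ssa#CX356212, Ssa#S31977617, Ssa#CL47Contig1 and Ssa#GRASP209155917) met the rule in all 20 of those runs. Ssa#S35582199 met it in 10 of them, the fewest, and the rest in 12 to 19. Of the 15, 12 met it with the authors' table and 13 with quantile normalization. With normexp, soybean meal alone was called higher than control for 10 of the 15 (7.03% of all tested probes), in place of 15. The same setting called 3 higher with P2 than in control (6.97%) and 8 with P1 (9.86%). It turned the sign of 6 single values against control: with P2, −0.46 for Omy#CA368682, −0.17 for Ssa#S35702585, −0.14 for Ssa#S31977617, −0.04 for Ssa#TC71868 and −0.00293 for Ssa#GRASP209155917, and with P1 −0.15 for Omy#CA368682. The cause was not tested. Between P2 and soybean meal alone, 1 probe, Ssa#GRASP209155917, was called with only the probes detected on all arrays (adjusted p = 0.0461 by limma, 0.253% of all tested probes lower) and 1, the same probe, with the replicate block (adjusted p = 0.0417, 0.206% lower). Leaving out 1 fish of the compared diets called 0 to 1 for P2 minus soybean meal, 0 to 4 for P2 minus P1 (4 without P1 fish 4), 4 to 9 for P2 minus control (4 without control fish 4 or P2 fish 2) and 13 to 15 for P1 minus control. Beyond the 1 call for P2 minus soybean meal, the replicate block called 8 in place of 7 for P2 minus control. It changed no other count of calls among the 15. Outside P2 with P1, every comparison held same-numbered fish whose deviations correlated below 0. All alternatives kept 0 calls for the corn gluten comparisons, where the median of corn gluten + P2 minus corn gluten ran from −0.04 to 0.05 with 1 fish left out. The planned normexp on spot means was run on spot medians, the spot summary that was read from the scanner files. It added an offset of 50 units to every spot, so its values do not show the background correction alone. Whether dim probes depended most on the background correction was not tested.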
